A study of Mus musculus with 8 samples.

Results

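The 36 genes described here encode proteins of the lysosome and of autophagy, and were taken as a fixed list of symbols from the 26930 genes of a mouse RNA sequencing count table. The list holds 7 lysosomal membrane proteins, 14 lumenal hydrolases and their helper proteins, 2 subunits of the proton pump, 3 MiT/TFE transcription factors, 6 genes of autophagosome initiation and conjugation, and 4 genes of autophagy receptors and the LC3 family. All 36 were in the table and all passed the filter on low counts. The libraries come from bone marrow precursors of C57BL/6 mice grown into myeloid-derived suppressor cells (MDSCs) with GM-CSF and IL-6, each at 40 ng/ml, and moved on day 4 into medium conditioned by TRAMP-C1 prostate tumour cells. The labels call the cells senescent-like. One group of 4 libraries is untreated, and the other 4 libraries come from cells given Romidepsin, an inhibitor of histone deacetylases, at 0.5 µM for 6 h. Both groups received the cytokines and the conditioned medium, and the labels name no culture without them, no animal behind a library and no pooling. The p-values therefore measure the spread between these libraries, which may be technical.

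Lysosomes are acidic organelles in which hydrolases break down proteins, lipids and sugars brought in by endocytosis, phagocytosis or autophagy. In autophagy a double membrane closes around cytoplasmic cargo and fuses with the lysosome, and the factors TFEB, TFE3 and MITF switch on many genes of both systems through the CLEAR element, a DNA motif built on CACGTG. Phagocytes are rich in lysosomes, and the activity of the enzyme encoded by Glb1, beta-galactosidase, is the basis of the common histochemical stain for senescent cells.

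Because the 3 factors act through the CLEAR element, the promoters were searched for its core on both strands (CACGTG reads the same on each). Promoters from RefSeq on GRCm38, 250 bases before to 50 bases after each start, were at hand for 30 of the 36 genes. The core stood in 7 of the 30 (23.3%), against 8.09% of 27025 genes with a promoter in the same table, expressed here or not. The longer form TCACGTGA, which contains the core, stood in Atp6v0d1 and Mcoln1 and in 1.12% of all genes. Those 2 genes are 6.67% of the 30. A 10-base palindrome of the CLEAR element, also searched for, stood in 0 of the 30 and in 0.37% of all genes. The 7 genes with the core are Lamp1, Mcoln1, Glb1, Gaa, Atp6v0d1, Atg5 and Atg7. A match is a description of the letters and not a bound site. The 150 bases upstream of the start are shown for Lamp1, which has 4 copies, for Mcoln1 and Atg7, which are the genes of the 7 that changed with treatment, and for Glb1. Capitals mark the matches, and every stretch reads along the plus strand, on which the gene lies. The RefSeq start of Atg7 lies inside the longer gene of the GENCODE annotation (chr6:114643097-114860614).
Lamp1, chr8:13159011-13159160: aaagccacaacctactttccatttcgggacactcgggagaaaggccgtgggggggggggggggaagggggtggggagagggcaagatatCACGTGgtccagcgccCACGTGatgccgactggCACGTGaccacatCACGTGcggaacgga
Mcoln1, chr8:3500369-3500518: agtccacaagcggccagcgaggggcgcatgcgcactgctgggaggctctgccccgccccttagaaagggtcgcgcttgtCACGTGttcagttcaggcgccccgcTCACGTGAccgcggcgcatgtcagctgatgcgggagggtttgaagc
Glb1, chr9:114400928-114401077: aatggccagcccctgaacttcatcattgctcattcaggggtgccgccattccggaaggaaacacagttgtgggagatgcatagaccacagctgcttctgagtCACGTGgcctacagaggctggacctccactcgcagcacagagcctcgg
Atg7, chr6:114670946-114671095: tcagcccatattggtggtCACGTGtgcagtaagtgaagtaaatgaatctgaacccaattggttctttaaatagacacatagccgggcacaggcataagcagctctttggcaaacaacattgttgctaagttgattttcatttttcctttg

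Levels are given in CPM, the depth-scaled read count, after TMM scaling (trimmed mean of M-values). Differences are log2 fold changes, treated over untreated, ± standard error. A change is called at an adjusted p below 0.05 in edgeR's quasi-likelihood test, adjusted by Benjamini-Hochberg over all 12852 genes tested. Total counts ran from 12996892 to 23176949 per library. The labelled cell type was checked on 12 myeloid markers, which were present in every library at a summed level of 39752 to 47050 CPM in untreated and 14386 to 33113 CPM in treated libraries. All 12 had a log2 fold change below 0, with a median of −1.26. Of the 12, 2 fell in the fit without a block, 6 with the replicate number as a block and 4 without treated replicate 3. The 2 calls were lost with housekeeping scaling, with no count filter and without any other single library. Ly6g, which defines granulocytic MDSCs, was low at 4.68 to 19.6 CPM in untreated cells. Summed B cell markers lay at 68.7 to 244 CPM in untreated and 13.99 to 65.4 CPM in treated libraries, and 3 of 4 fell. Only 1 of the 4 fell with housekeeping scaling, with no count filter, without untreated replicate 2 or 3 and without treated replicate 1 or 4. Summed markers of T and NK cells were at most 5.37 CPM, of erythroid cells at most 0.986 CPM and of mast cells and basophils at most 28.3 CPM. The 1 T and NK marker tested fell, a call lost with the block, library size and housekeeping scaling, among other settings. Stromal and epithelial markers reached 46.9 and 157 CPM in the libraries numbered 2, through Col1a1 and Col1a2, and at most 10.7 CPM elsewhere. The part of these marker shifts in the results was not tested, and in bulk RNA fewer cells of a type and less RNA per cell cannot be told apart. Treated replicate 3 had a mean r of 0.934 to the untreated libraries and 0.910 to the other treated libraries. Results for the 36 genes are therefore given with and without it where that changes a call. The same means are not given for the other treated libraries. In the summed myeloid markers treated replicate 4, at 29602 CPM, lay near replicate 3, with replicates 1 and 2 at 17310 and 14386 CPM.

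In untreated cells several lysosomal genes ranked near the top of the transcriptome. Compared per kilobase of merged exons, 34 of the 36 genes lay above the median of all tested genes, which was 5.61 CPM per kb. Psap, which encodes the precursor of the saposins that help hydrolases degrade sphingolipids, ranked second of 12847 genes with a known length at 7566 CPM per kb, with a range of 6152 to 9401 over the 4 libraries. Next came Gpnmb (914 CPM per kb), a glycoprotein of lysosomes and melanosomes, and Lamp1 (889 CPM per kb), the chief structural glycoprotein of the lysosomal membrane. The ranges of those 2 genes overlapped each other and lay apart from Psap above and from Hexa below (502 CPM per kb). Npc2 (461 CPM per kb) reached 640 CPM per kb in its highest library, above the lowest library of Lamp1 at 615. Glb1 stood at 38.3 CPM per kb, rank 1441.

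The 3 factors lay in the lower part of the order, with Atp6v1h, Mcoln1, Ulk1, Smpd1, Wipi1, Atg16l1 and Optn below them all. Tfe3 was at 16.4, Mitf at 12.6 and Tfeb at 9.84 CPM per kb. Wipi1 stood at 5.85, and Atg16l1 and Optn were below the median of all genes at 4.96 and 2.36 CPM per kb. Only 5 of the 35 neighbouring steps in the order had ranges that did not overlap (below Psap, Lamp1, Npc2, Tfe3 and Atg16l1), so most neighbours did not differ beyond their spread. The highest untreated library was replicate 3 for 16 genes and replicate 3 or 4 for 29 of the 36. Together the 36 genes took 3.09 to 4.16% of all counts in untreated and 2.62 to 3.67% in treated libraries. Psap alone made up 51.5 to 52.6% of their summed CPM in untreated and 45.5 to 50.7% in treated libraries.

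**Figure D1:**
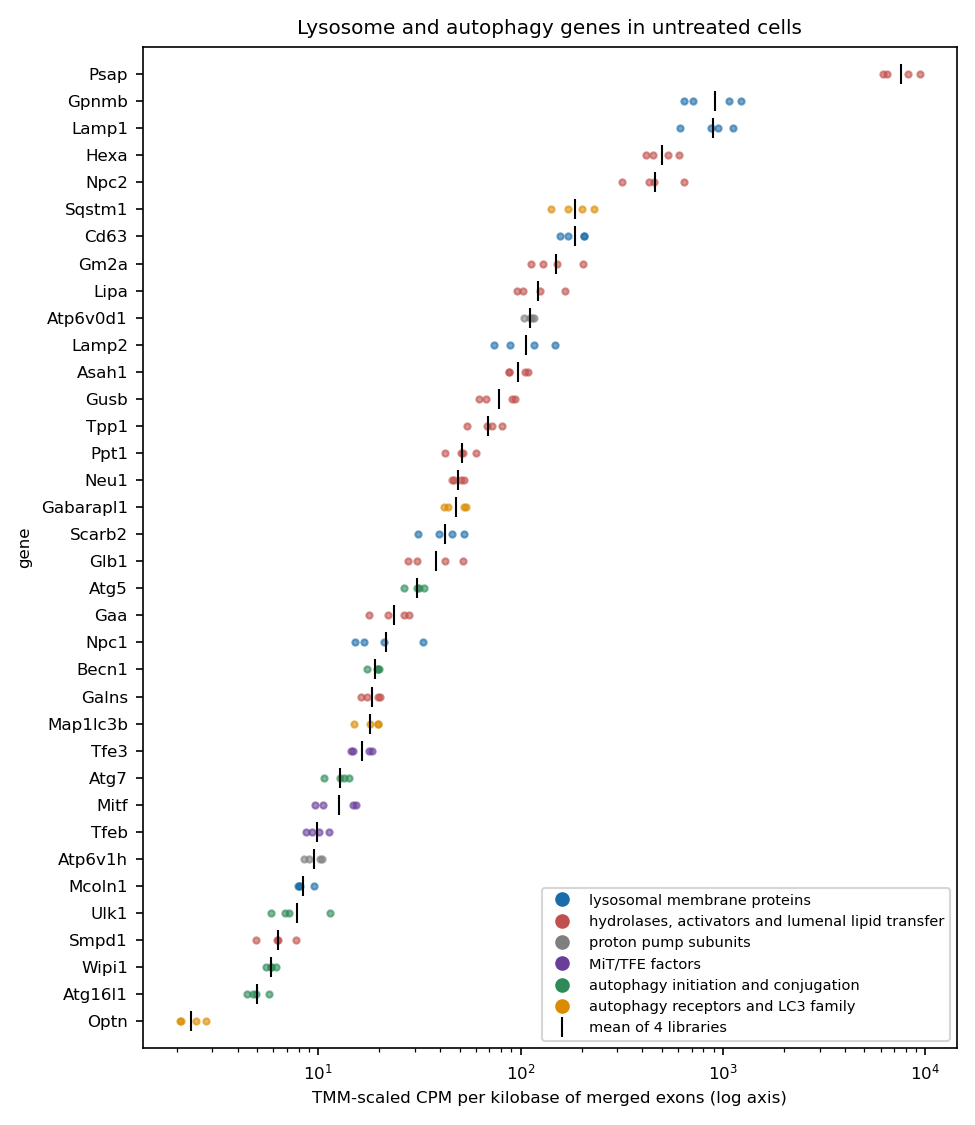
Level of each of the 36 genes in the 4 untreated libraries, in TMM-scaled CPM per kilobase of merged exons on a log axis, with points for libraries, coloured by role, and a bar for the mean. Psap stands alone at the top at 7566 CPM per kb, and the 3 MiT/TFE factors lie between 9.84 and 16.4.

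After Romidepsin, all 3 MiT/TFE genes fell, the lysosomal sialidase gene Neu1 and the autophagosome gene Wipi1 rose, and the conjugation gene Atg7 fell. Of the 36 genes 5 rose (13.9%), 7 fell (19.4%) and 24 did not pass. Among all tested genes 20.3% rose and 16.2% fell, so that the 2 shares of the list lie near the background. The median log2 fold change was −0.26 over the list and 0.0057 over all genes. In 20 of the 36 genes (55.6%) the treated library was lower than the untreated one of the same number in all 4 pairs, against 29.5% of all tested genes, and in 8 (22.2%) it was higher in all 4, against 30.1%. Treated libraries lay wholly above the untreated ones for 5 genes and wholly below for 9, beside 18.7% and 16.5% of all genes. Deviations of libraries with the same number went together, and with the number as a block in the fit 3 of the 36 genes rose and 11 fell, where 21.2% and 20.8% of all genes did. Without treated replicate 3 the list had 5 higher and 11 lower genes (24.5% and 23.4% of all genes).

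The number of calls depended on single libraries. Leaving out untreated replicate 1, 2, 3 or 4 left 2, 3, 2 and 5 higher and 7, 6, 3 and 4 lower genes. Leaving out treated replicate 1, 2 or 4 left 2 higher genes each and 4, 4 and 3 lower ones. This was not particular to the list. Over all genes 2610 rose and 2080 fell, and leaving out each library in turn gave 1716 to 3146 rises and 1183 to 3010 falls. The scaling moved the balance as well. With library size alone the median log2 fold change over all genes moved up by 0.30, which gave 9 higher and 4 lower genes of the list (30.2% and 10.6% of all genes). With scaling to 20 housekeeping genes it moved up by 0.48, which gave 10 and 2 (38.4% and 5.91%). On the TMM scale 3 of those 20 genes rose and 5 fell (15% and 25%, beside 20.3% and 16.2% of all genes). Their median log2 fold change was −0.29, and their summed level was 11213 to 15423 CPM in untreated and 8948 to 10138 CPM in treated libraries. Housekeeping scaling is therefore an alternative scale that was not shown to be a stable reference. Over all genes, rises made up 55.7% of the calls with TMM, 74.0% with library size and 86.7% with housekeeping scaling. Fold changes below are relative to the TMM scale. Wipi1, Neu1, Tfeb and Atg7 passed in the same direction under each of the 18 alternatives run, and Tfe3 under all but housekeeping scaling.

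**Figure D2:**
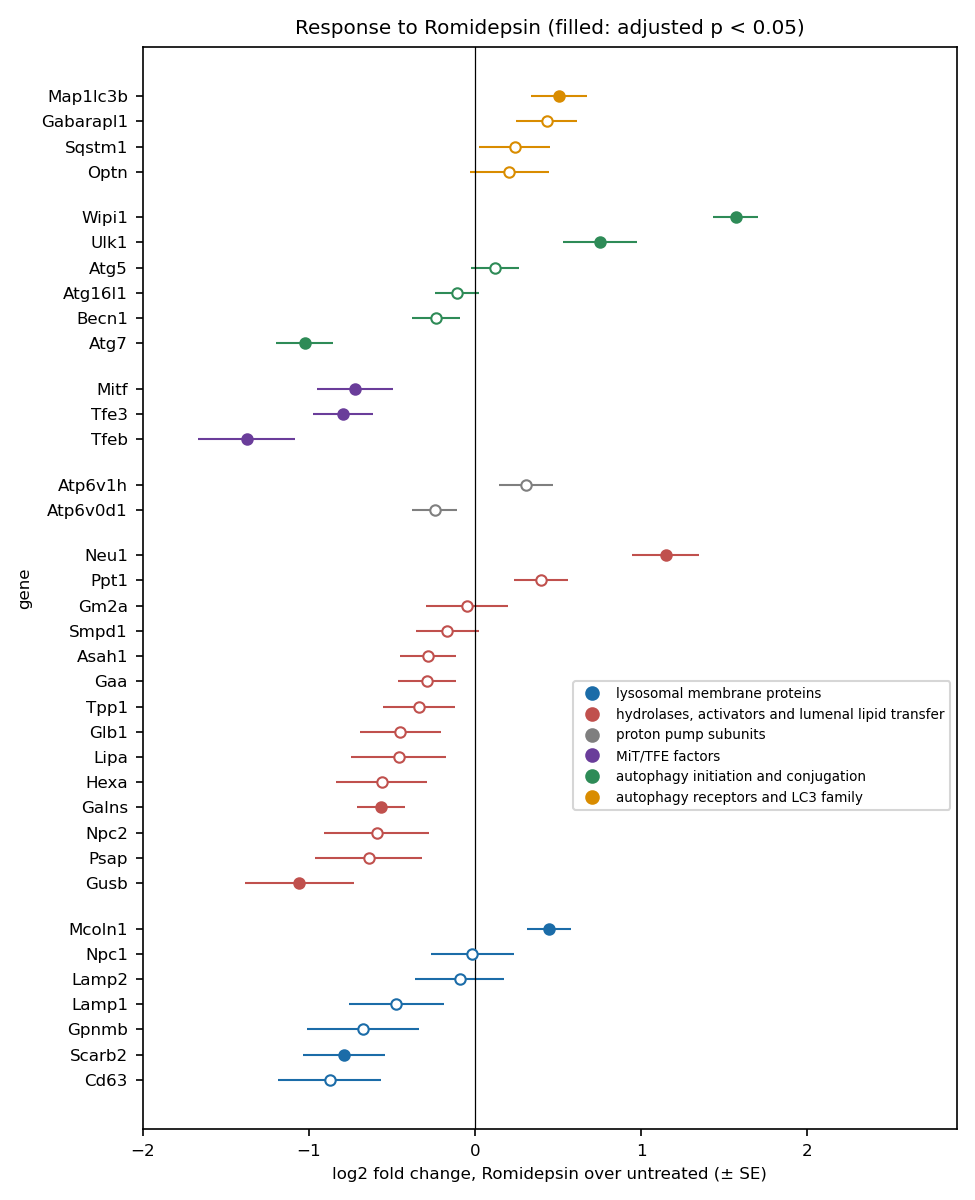
Log2 fold change of treated over untreated cells with its standard error for each of the 36 genes, grouped and coloured by role, n = 4 per group; filled points passed at an adjusted p below 0.05. All 3 MiT/TFE factors lie left of 0 and all 4 receptor and LC3 genes right of it, though only Map1lc3b of these passed.

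The MiT/TFE factors were the one group of the list in which every member was called, but the group holds only 3 genes. Over all tested genes 16.2% fell. With library size 2 of the 3 passed, and with housekeeping scaling 1 did. Tfeb (chr17:47737030-47792419, GRCm38), a master regulator of lysosome formation, was at 57.1, 64.0, 52.6 and 49.5 CPM in untreated replicates 1 to 4 and at 14.2, 13.6, 33.0 and 25.3 CPM in the treated ones. The groups did not overlap, and treated replicates 1 and 2 were the lowest. Tfeb fell from 55.8 ± 6.29 to 21.5 ± 9.37 CPM (mean ± SD, n = 4 per group; log2 fold change −1.37 ± 0.29, adjusted p = 0.00824). Its call held with housekeeping scaling (−0.90, adjusted p = 0.0269).

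Tfe3, which acts alongside Tfeb in macrophages, was at 138, 134, 166 and 171 CPM in untreated and 79.8, 69.7, 109 and 93.5 CPM in treated replicates 1 to 4. Every treated library lay below every untreated one. The fall was −0.79 ± 0.18 (adjusted p = 0.0110), and with housekeeping scaling the value was −0.33 (adjusted p = 0.234). Mitf, the family member best known from melanocytes and osteoclasts, went from 59.9, 65.2, 91.6 and 95.5 CPM to 39.3, 36.2, 59.6 and 54.5 CPM. Its groups were separated by a narrow gap, between 59.6 and 59.9 CPM, while each pair of equal number showed a clear drop. The fall of −0.72 ± 0.23 (adjusted p = 0.0352) lost its call without any one of untreated replicates 3 and 4 and treated replicates 1, 2 and 4 (adjusted p 0.0563 to 0.0978), with library size (0.0940) and with housekeeping scaling (0.433). The direction of all 3 genes was the same under every scaling run.

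Within a library the ratio of 2 genes does not depend on scaling, and 9 pairs of related genes were compared in this way by a two-sided exact permutation test over the libraries. The smallest p that 4 against 4 allows is 0.0286, and none of the 9 pairs passed after Benjamini-Hochberg adjustment over them (3 had an unadjusted p of 0.0286, adjusted p = 0.0857). The log2 ratio of Tfeb to Tfe3 was −1.45 ± 0.33 in untreated and −2.11 ± 0.37 in treated libraries and lower in all 4 pairs (exact permutation p = 0.0571, adjusted p = 0.129). For Mitf to Tfe3 the ratio was −0.99 ± 0.17 and −0.90 ± 0.10 (exact permutation p = 0.486, adjusted p = 0.624). A pair at the smallest p passes the adjustment only if most of the 9 pairs reach that p, so passing was unlikely from the start. These tests therefore do not decide whether the falls of the 3 factors differed in size.

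**Figure D3:**
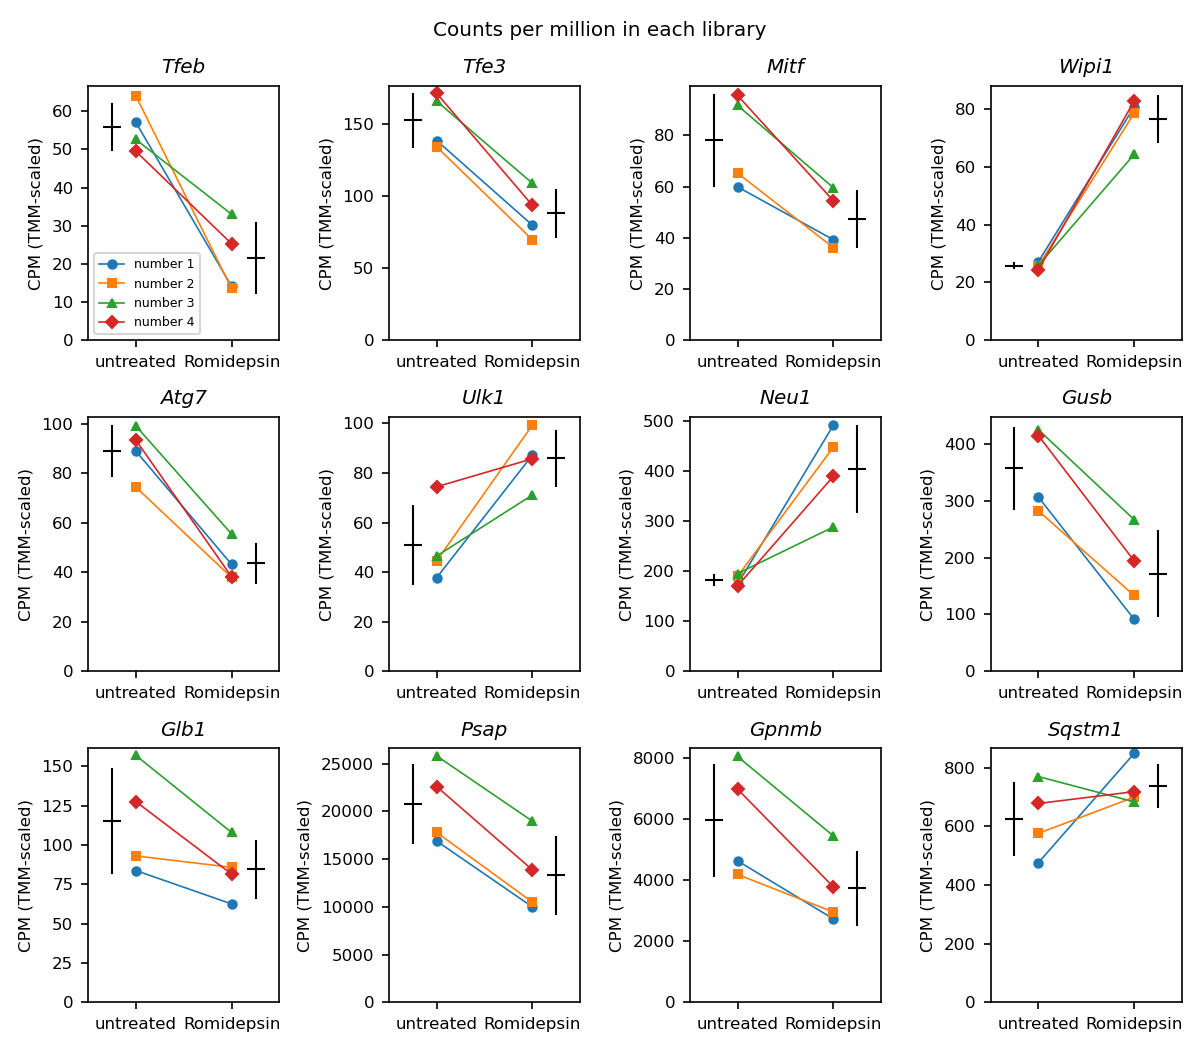
TMM-scaled CPM of 12 of the genes in each library; lines join libraries of equal number, and the bars beside them give mean ± SD, n = 4 per group. Wipi1 and Neu1 rise and Tfeb, Tfe3, Mitf, Atg7 and Gusb fall in all 4 pairs, and Psap, Gpnmb and Glb1 are lower in all 4 pairs with groups that overlap.

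Of the 7 lysosomal membrane genes 1 rose, 1 fell and 5 did not pass (14.3% each way, beside 20.3% and 16.2% of all genes). Their median log2 fold change was −0.47. Mcoln1, the calcium channel of the lysosomal membrane, was at 60.0, 72.3, 60.7 and 61.7 CPM in untreated and 82.6, 83.7, 94.6 and 86.4 CPM in treated replicates 1 to 4. All treated libraries were higher than all untreated ones, although the change was small (0.45 ± 0.13, adjusted p = 0.0275). The call was lost with the replicate block (adjusted p = 0.0595), with no count filter (0.143), without both libraries of number 3 (0.108) and without untreated replicate 1 or 3 or treated replicate 1, 2 or 4 (0.0559 to 0.0835). Scarb2, the receptor that carries glucocerebrosidase to the lysosome, was at 196, 249, 287 and 330 CPM and after treatment at 119, 123, 213 and 160 CPM. The groups overlapped through treated replicate 3, and every pair was lower. The fall was −0.79 ± 0.25 (adjusted p = 0.0342). It lost its call with library size (adjusted p = 0.0681), with housekeeping scaling (0.340) and without any single library other than untreated replicate 1 and treated replicate 3 (0.0611 to 0.0936).

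Cd63, a tetraspanin of late endosomes and lysosomes, missed the threshold although its groups did not overlap. It was at 628, 755, 757 and 579 CPM in untreated and 225, 250, 516 and 492 CPM in treated replicates 1 to 4, with treated replicates 1 and 2 at the bottom (−0.87 ± 0.31, adjusted p = 0.0525). It passed with the replicate block (adjusted p = 0.0299), without treated replicate 3 (0.0211), with DESeq2 size factors (0.0472), the DESeq2 Wald test (0.0135), limma-voom (0.0348) and no count filter (0.0401). Gpnmb was at 4627, 4181, 8036 and 6970 CPM and at 2731, 2954, 5444 and 3776 CPM. Libraries numbered 3 and 4 were the higher ones in both groups, so that the groups overlapped although each pair was lower. Gpnmb had a log2 fold change of −0.68 ± 0.34 (adjusted p = 0.138), and passed with the block (−0.68, adjusted p = 0.0256) and without treated replicate 3 (−0.94, adjusted p = 0.0493).

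Lamp1 was at 1646, 2341, 2982 and 2540 CPM in untreated and 1270, 1455, 2303 and 1825 CPM in treated replicates 1 to 4. It was lower in all 4 pairs with overlapping groups, and did not pass (−0.47 ± 0.29, adjusted p = 0.213; with the block adjusted p = 0.0794). Lamp2, which has a variant that serves chaperone-mediated autophagy, was at 1021 ± 315 and 957 ± 161 CPM (−0.09 ± 0.27, adjusted p = 0.804). The log2 ratio of Lamp1 to Lamp2 was 1.24 ± 0.17 in untreated and 0.82 ± 0.19 in treated libraries, lower in all 4 pairs and without overlap (exact permutation p = 0.0286, the smallest possible, adjusted p = 0.0857). Npc1, the membrane protein that exports cholesterol, was at 244 ± 90.6 and 241 ± 18.4 CPM (adjusted p = 0.966). Its partner in the lumen, Npc2, was at 2506 ± 728 and 1663 ± 551 CPM (−0.59 ± 0.32, adjusted p = 0.162) and passed with the block (adjusted p = 0.0442) and without treated replicate 3 (0.0458). The ratio of the 2 genes did not differ beyond the spread (exact permutation p = 0.171, adjusted p = 0.300).

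Of the 14 hydrolases and their helpers 1 rose, 2 fell and 11 did not pass (7.14% and 14.3%, beside 20.3% and 16.2% of all genes). Their median log2 fold change was −0.39. Neu1 (chr17:34931253-34935953), the sialidase that removes sialic acid from glycoproteins, was at 174, 190, 196 and 171 CPM in untreated and 492, 448, 289 and 390 CPM in treated replicates 1 to 4. Untreated libraries were tightly grouped and each treated library was far above them, treated replicate 3 the least. Neu1 rose from 183 ± 12.0 to 405 ± 87.9 CPM (1.15 ± 0.20, adjusted p = 0.00426).

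Gusb, beta-glucuronidase, went the other way, from 306, 282, 425 and 414 CPM to 91.8, 133, 267 and 194 CPM. The groups did not overlap and treated replicates 1 and 2 were again the lowest. The fall was −1.06 ± 0.33 (adjusted p = 0.0326), a call lost with housekeeping scaling (adjusted p = 0.171) and without untreated replicate 3 or 4 or treated replicate 1, 2 or 4 (0.0644 to 0.0833). Galns, a sulfatase that degrades keratan sulfate, went from 52.3, 46.0, 53.5 and 42.9 CPM to 37.0, 31.9, 33.6 and 29.0 CPM. Its 4 treated libraries, replicate 3 included, lay close together and below all untreated ones. It fell by 0.57 on the log2 scale (SE 0.15, adjusted p = 0.0167), a call lost without untreated replicate 3 (adjusted p = 0.0556), treated replicate 4 (0.0545) or the number 3 pair (0.0533), with library size (0.244) and with housekeeping scaling (0.719).

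Glb1 was at 83.8, 93.1, 157 and 128 CPM in untreated and 62.6, 85.8, 108 and 81.5 CPM in treated replicates 1 to 4. It was lower in every pair, but the groups overlapped and the difference was within the spread (−0.45 ± 0.24, adjusted p = 0.166; with the block adjusted p = 0.0770). With housekeeping scaling its direction turned (0.014, adjusted p = 0.971), and it passed under none of the alternatives. Part of an exon of Glb1 is shared with the gene Tmppe, which lies on the same strand, so the split of reads between them is uncertain.

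Psap, the most abundant gene of the list, was at 16881, 17786, 25796 and 22585 CPM in untreated and 9992, 10493, 18968 and 13871 CPM in treated replicates 1 to 4. The groups overlapped through treated replicate 3 while each pair was lower. Its log2 fold change of −0.64 ± 0.32 did not pass (adjusted p = 0.141), whereas it did with the block (adjusted p = 0.0233) and in the DESeq2 Wald test (0.0334). Hexa, the alpha subunit of hexosaminidase A, was at 1002 ± 169 and 679 ± 226 CPM (−0.56 ± 0.27, adjusted p = 0.130) and passed without treated replicate 3 (adjusted p = 0.0262). Its activator protein, Gm2a, was at 616 ± 164 and 596 ± 108 CPM (adjusted p = 0.891). The ratio of Hexa to Gm2a was lower in all 4 pairs without passing (exact permutation p = 0.200, adjusted p = 0.300).

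Ppt1, the thioesterase that strips palmitate from proteins, was the other gene of this group with a higher level after treatment. It was at 155, 191, 220 and 187 CPM in untreated and 237, 251, 260 and 245 CPM in treated replicates 1 to 4, without overlap (0.40 ± 0.16, adjusted p = 0.0798), and passed with library size (adjusted p = 0.00771), upper-quartile (0.0429) and housekeeping scaling (0.00748). The remaining 5 hydrolases did not pass. They are the acid lipase gene Lipa (−0.46), the acid alpha-glucosidase gene Gaa (−0.29), the peptidase gene Tpp1 (−0.34), the ceramidase gene Asah1 (−0.28) and the sphingomyelinase gene Smpd1 (−0.17), with adjusted p from 0.208 to 0.508. Gaa, Asah1 and Smpd1 changed sign with library size and housekeeping scaling, and Tpp1 with housekeeping scaling.

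The 2 subunits of the proton pump that acidifies the lysosome had opposite signs. Atp6v1h, a regulatory subunit of the cytosolic sector, was at 93.0 ± 9.30 and 115 ± 17.3 CPM (0.31 ± 0.16, adjusted p = 0.155). Atp6v0d1, of the membrane sector, was at 208, 186, 204 and 199 CPM in untreated and 166, 161, 175 and 172 CPM in treated replicates 1 to 4 (−0.24 ± 0.14, adjusted p = 0.184), without overlap. It passed in the DESeq2 Wald test (adjusted p = 0.0324) and changed sign with library size and housekeeping scaling, where Atp6v1h passed (adjusted p = 0.0298 and 0.00659). Their log2 ratio, which needs no scaling, went from −1.10 ± 0.11 to −0.56 ± 0.24, higher in all 4 pairs and without overlap (exact permutation p = 0.0286, adjusted p = 0.0857).

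Autophagy initiation and conjugation held the largest rise of the list and a clear fall. Of the 6 genes 2 rose, 1 fell and 3 did not pass (33.3% and 16.7%, beside 20.3% and 16.2% of all genes). Wipi1 (chr11:109573331-109611967), a phosphoinositide-binding protein of the forming autophagosome, was at 27.2, 25.8, 25.9 and 24.4 CPM in untreated and 80.6, 78.4, 64.2 and 82.6 CPM in treated replicates 1 to 4. The untreated libraries lay close together, and the treated ones, replicate 3 included, were all far above them. Wipi1 rose from 25.8 ± 1.15 to 76.5 ± 8.35 CPM (1.57 ± 0.14, adjusted p = 5.26e-04), with 1.53 to 1.62 when each library was left out in turn.

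Ulk1, the kinase that starts autophagy, rose less evenly, from 37.8, 44.6, 46.5 and 74.5 CPM to 87.2, 99.3, 71.2 and 85.7 CPM. Untreated replicate 4 lay above treated replicate 3, so the groups overlapped, but every pair was higher. The rise was 0.75 ± 0.22 (adjusted p = 0.0279) and lost its call without any single library other than untreated replicate 4 and treated replicate 3 (adjusted p 0.0609 to 0.0782). Becn1, of the lipid kinase complex that acts after Ulk1, was at 135 ± 8.14 and 115 ± 12.2 CPM and did not pass (adjusted p = 0.213). The log2 ratio of Ulk1 to Becn1 went from −1.46 ± 0.51 to −0.43 ± 0.10, higher in all 4 pairs and without overlap (exact permutation p = 0.0286, adjusted p = 0.0857).

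Atg7, the activating enzyme for both ubiquitin-like conjugation systems of autophagy, was at 89.1, 74.5, 99.2 and 93.5 CPM in untreated and 43.2, 38.0, 55.5 and 38.2 CPM in treated replicates 1 to 4. All treated libraries were below all untreated ones. Atg7 fell from 89.1 ± 10.6 to 43.8 ± 8.22 CPM (−1.03 ± 0.17, adjusted p = 0.00338), and passed with housekeeping scaling too (−0.55, adjusted p = 0.0411). Atg5 and Atg16l1, parts of the complex that attaches LC3 to membranes, were at 72.0 ± 6.79 and 47.8 ± 5.09 CPM in untreated and 78.3 ± 8.19 and 44.4 ± 2.22 CPM in treated cells (adjusted p = 0.516 and 0.539). Atg5 passed with library size (adjusted p = 0.0462) and housekeeping scaling (0.0184).

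All 4 genes of the receptors and the LC3 family had a log2 fold change above 0, under each scaling run. Of the 4, 1 was called (25%, where 20.3% of all genes rose). Map1lc3b, whose product marks autophagosomes, was at 113, 135, 148 and 149 CPM in untreated and 212, 213, 159 and 191 CPM in treated replicates 1 to 4. The groups did not overlap, with treated replicate 3 the nearest to the untreated libraries. The rise of 0.51 ± 0.17 (adjusted p = 0.0418) was lost with the block (adjusted p = 0.0732), with DESeq2 size factors (0.0546), with no count filter (0.139) and without any single library other than untreated replicate 4 and treated replicate 3 (0.0742 to 0.110). Gabarapl1, of the same family, was at 96.6 ± 12.0 and 130 ± 25.9 CPM, higher in all 4 pairs (0.43 ± 0.18, adjusted p = 0.0905), and passed with library size (adjusted p = 0.0117), upper-quartile (0.0473) and housekeeping scaling (0.00779). Treated replicates 3 and 4 were the highest for Gabarapl1 and the lowest for Map1lc3b. No difference in the ratio of the 2 genes was shown (exact permutation p = 0.800, adjusted p = 0.800).

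Sqstm1, the cargo receptor p62, was at 476, 576, 770 and 678 CPM in untreated and 849, 700, 684 and 719 CPM in treated replicates 1 to 4. It was higher in 3 of 4 pairs, the groups overlapped and the difference did not pass (0.24 ± 0.22, adjusted p = 0.398), except with housekeeping scaling (0.71, adjusted p = 0.0434). Optn, another cargo receptor and the least expressed gene of the list, was at 8.87 ± 1.31 and 10.2 ± 2.54 CPM (adjusted p = 0.511). Of the 7 genes with the CACGTG core shown at the start, Mcoln1 rose, Atg7 fell and 5 did not pass. Wipi1, Neu1 and Gusb have no CACGTG in the 300-base window, and the 3 factors themselves have none in any of their annotated promoters.

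Treated replicate 3 was the highest treated library for 6 of the 7 genes that fell and the lowest for 4 of the 5 that rose. It was thus nearest to the untreated level for 10 of the 12 called genes, the exceptions being Galns and Mcoln1. The summed myeloid markers were also highest in treated replicate 3 among treated libraries, and the part of that in these genes was not tested.

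**Figure D4:**
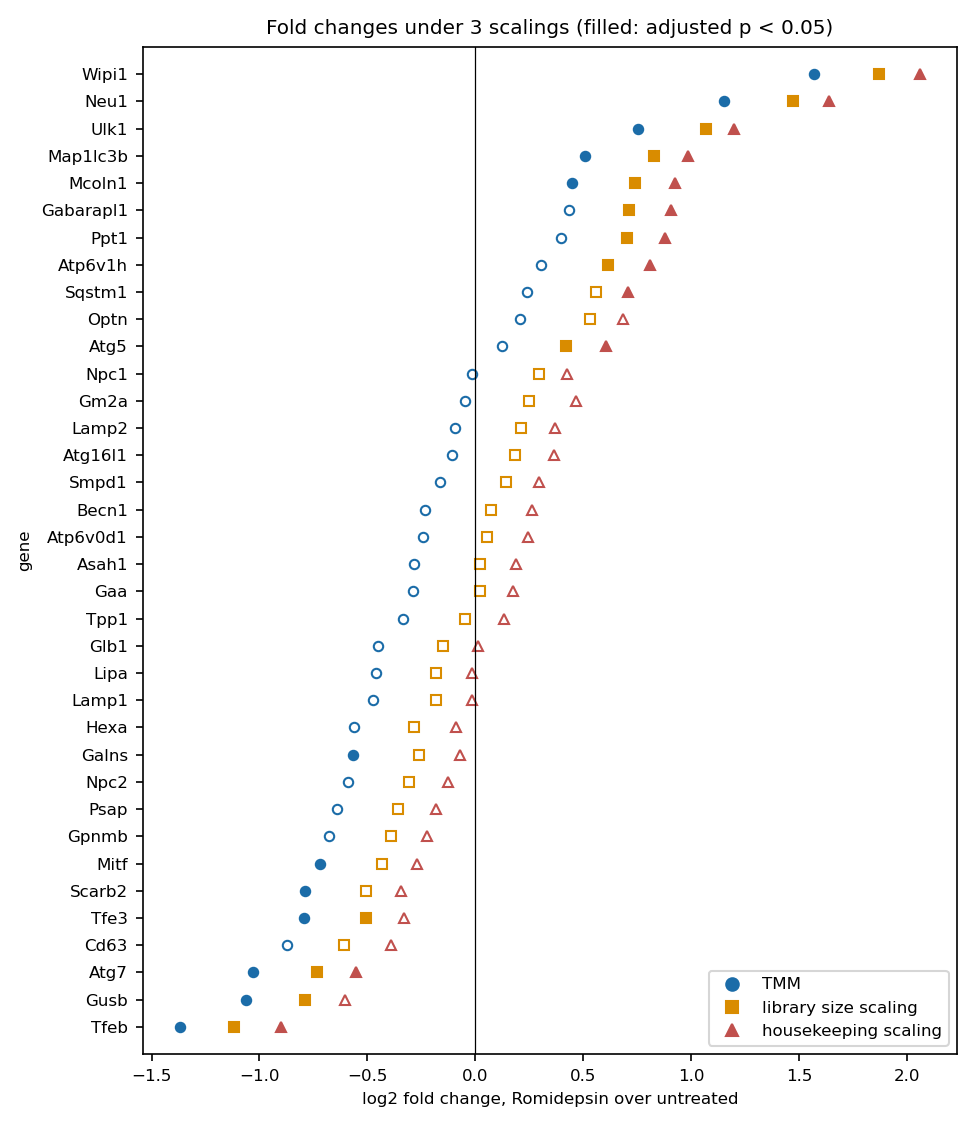
Log2 fold change of each gene under TMM (circles), library size (squares) and housekeeping scaling (triangles); filled symbols passed at an adjusted p below 0.05. Each scaling moves all genes together, and Tfeb and Atg7 remain below 0 and called under all 3, while Glb1 passes 0 with housekeeping scaling.

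Further genes of the pathway were described by lists that hold none of the 36. Of 20 other lysosomal hydrolase genes 6 fell, 1 rose and 13 did not pass, with a median log2 fold change of −0.34 (with the block 7 fell; with housekeeping scaling 1 fell and 3 rose). Over all genes 16.2% fell and 20.3% rose. With the block 20.8% of all genes fell, and with housekeeping scaling 5.91% fell and 38.4% rose. The 6 falls became 8 without treated replicate 3, 5 and 4 without untreated replicate 1 and 4, 3 without untreated replicate 2 or treated replicate 2, 2 without treated replicate 1 or 4 and 1 without untreated replicate 3. Arsa, the sulfatase of sulfatides, fell from 56.1 ± 0.956 to 24.2 ± 6.64 CPM (−1.21 ± 0.19, adjusted p = 0.00285), under each alternative. Acp5, an acid phosphatase, and Idua, iduronidase, fell by 0.97 and 0.92 on the log2 scale, and their calls were lost with housekeeping scaling (adjusted p = 0.130 and 0.168) and without untreated replicate 3 (0.0564 and 0.0552), that of Idua also without treated replicate 1 (0.0508) or 4 (0.0529).

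Of 18 other lysosomal membrane genes 3 rose (16.7%), 2 fell (11.1%) and 13 did not pass, beside 20.3% and 16.2% of all genes. With the block 2 rose and 6 fell, where 21.2% and 20.8% of all genes did. Without treated replicate 3 the counts were again 2 and 6, beside 24.5% and 23.4% of all genes. Leaving out any other single library gave 1 to 3 rises and 1 or 2 falls. Laptm4b, a lysosomal transmembrane protein, rose from 10.9 ± 3.15 to 22.3 ± 2.68 CPM (1.02 ± 0.24, adjusted p = 0.0126), and Cln3 fell from 135 ± 14.1 to 56.2 ± 26.7 CPM (−1.26 ± 0.31, adjusted p = 0.0144; adjusted p = 0.0583 with housekeeping scaling). The cystine exporter gene Ctns rose by 0.50 (adjusted p = 0.0191), a call lost with no count filter (0.0936) and without untreated replicate 2 or 3 or treated replicate 1 or 4 (0.0514 to 0.0618). Tpcn2, an endolysosomal channel, fell by 1.06 (adjusted p = 0.0230), a call lost with housekeeping scaling (0.157) and without untreated replicate 2 or 3 or treated replicate 2 (0.0519 to 0.0638). Among 16 other genes of the proton pump 2 fell and 14 did not pass (0% rose and 12.5% fell, beside 20.3% and 16.2% of all genes). With the block 4 fell, where 20.8% of all genes did. With housekeeping scaling 5 rose and 1 fell, where 38.4% and 5.91% of all genes did. Without treated replicate 3, 2 of them rose and 4 fell, without untreated replicate 4, 1 rose and 3 fell, and without any other single library 1 fell. Atp6v0d2, the isoform of Atp6v0d1 known from osteoclasts and macrophages, fell from 29.4 ± 7.87 to 12.0 ± 2.97 CPM (−1.30 ± 0.25, adjusted p = 0.00570). Of the 6 genes that sort enzymes to the lysosome, Nagpa fell from 80.5 ± 3.76 to 30.0 ± 12.0 CPM (−1.42 ± 0.26, adjusted p = 0.00450), Gnptg rose (1.25 ± 0.34, adjusted p = 0.0218) and 4 did not pass. The call of Gnptg was lost without untreated replicate 4 or treated replicate 1 or 2 (adjusted p 0.0549 to 0.0610), and 3 of the other genes rose without untreated replicate 4. Gnptg and Nagpa act on the mannose-phosphate tag of lysosomal enzymes. The 1 rise and 1 fall in this list of 6 are 16.7% each, beside 20.3% and 16.2% of all genes.

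Among 16 genes of the mTORC1 pathway that controls TFEB, 3 rose, 3 fell and 10 did not pass. The 2 shares are 18.8% each, beside 20.3% and 16.2% of all genes. With housekeeping scaling 6 rose and 1 fell, beside 38.4% and 5.91% of all genes. Without untreated replicate 4, 5 rose and 3 fell. Leaving out any other single library gave 2 or 3 rises and 2 to 4 falls. Rraga, a Rag GTPase that recruits mTORC1 to the lysosome, rose from 78.6 ± 6.36 to 160 ± 8.66 CPM (1.03 ± 0.14, adjusted p = 0.00165), with no overlap and treated replicate 3, at 164 CPM, level with the other treated libraries. Lamtor1, the lysosomal anchor of the Rag GTPases, fell from 146 ± 22.2 to 56.5 ± 13.3 CPM (−1.37 ± 0.21, adjusted p = 0.00236). Rragd rose by 1.39 and Rragc fell by 0.80, and Flcn, which regulates these GTPases, fell by 0.87. With housekeeping scaling Rragc and Flcn lost their calls (adjusted p = 0.301 and 0.189), and Rragc also with library size (0.0511) and without any single library other than untreated replicates 1 and 2 and treated replicate 3 (0.0554 to 0.0786). Rraga, Lamtor1 and Rragd passed under every alternative in which they were tested. Tsc2, a brake on mTORC1, rose by 1.21 (adjusted p = 0.0290; 0.0643 to 0.0801 without untreated replicate 1, 2 or 3 or treated replicate 1 or 2) with treated replicates at 149, 164, 51.8 and 81.8 CPM, of which replicate 3 lay within the untreated range of 39.4 to 68.7 CPM.

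Of 40 other autophagy genes 8 rose, 2 fell and 30 did not pass, with a median log2 fold change of 0.09; over all genes 20.3% rose and 16.2% fell. The rises became 13 without untreated replicate 4 and 5 without untreated replicate 2 or 3 or treated replicate 1 or 2, and the falls ranged from 1 to 4 when each library was left out, with 4 without treated replicate 3. The LC3-processing protease genes Atg4b and Atg4d rose by 1.11 and 1.05 (adjusted p = 0.00236 and 0.00510) and the receptor gene Calcoco1 by 1.21 (adjusted p = 0.00347), each under every alternative. Vamp8, the SNARE protein that fuses autophagosomes with lysosomes, was at 33.5, 39.1, 40.1 and 30.9 CPM in untreated and 3.44, 3.81, 17.9 and 7.25 CPM in treated replicates 1 to 4. It fell by 2.15 on the log2 scale (SE 0.49, adjusted p = 0.0111), more than any of the 36 genes, and the value was −2.91 without treated replicate 3. With housekeeping scaling 17 of these 40 genes rose and 1 fell, beside 38.4% and 5.91% of all genes.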

How the data were processed

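The deposited values are raw read counts per Ensembl gene for 8 libraries (8 columns, matched by title). Libraries were made from poly(A)-selected RNA and run on a NextSeq 500, per the labels' protocols. The submitters' processing notes name FastQC, DESeq2, STAR 2.5.2a and the GRCm38 (mm10) build. Counting tool, annotation release and strand setting were not given in the sources used here, so reads shared with an overlapping gene are uncertain, which concerns 1 of the 36 genes on the same strand (Glb1) and 10 on the opposite strand (Lamp1, Npc1, Hexa, Ppt1, Atp6v1h, Becn1, Sqstm1, Optn, Map1lc3b and Gabarapl1). Of 26930 identifiers 26881 matched a symbol. Counts were analysed with edgeR 4.0.16 in R 4.3.3 (filterByExpr, TMM, robust quasi-likelihood F test, no block), and the step was tested on simulated counts. Alternatives used DESeq2 1.42.0, limma 3.58.1, other scalings, other count filters (none, mean of at least 10 CPM), a replicate block and libraries left out.

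The members, the other gene lists and the tests were chosen with earlier results of these data known. All 36 members were to be described, and of each other list at most 3 called genes per direction with the smallest p. One of those genes is not reported here. Libraries of equal number correlated in their deviations from the group mean at 0.525, 0.270, 0.457 and 0.171 for numbers 1 to 4, all above the bound of 0.1. They were therefore treated as pairs in the pair directions, the replicate block and the sign-flip test. The reported fit and the permutation test of the ratios did not use the pairing. No label gives the meaning of a number, so the pairing rests on these correlations. Ratios used log2 of counts plus 0.5, and pair directions log2 of CPM plus 0.5. Merged exon lengths and coordinates come from GENCODE M21 on GRCm38.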

Additional observations from a re-analysis of the deposited data

Results flagged for a closer look

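In 4 of 90 groups of 4 libraries checked (36 genes and 9 ratios in each treatment group), 1 library stood apart by Dixon's gap criterion at 95%; chance alone gives about 1 in 20. Mcoln1 was at 72.3 CPM in untreated replicate 2, against 60.0 to 61.7 CPM in the other untreated libraries. Becn1 was at 123 CPM in untreated replicate 4, against 138.5 to 141 CPM in the others. Atg5 was at 66.2 CPM in treated replicate 2, against 80.6 to 83.4 CPM. The log2 ratio of Hexa to Gm2a was −0.0153 in untreated replicate 1, against at least 0.95 in the others, with Gm2a at 842 CPM there and 464 to 624 CPM elsewhere.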

How the results depend on the processing

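Of all genes, 2610 rose and 2080 fell. With library size 1368 fell, and with housekeeping scaling 4933 rose and 760 fell. Leaving out each library in turn gave 1716 (without untreated replicate 3) to 3146 (without treated replicate 3) higher and 1183 (without treated replicate 4) to 3010 (without treated replicate 3) lower genes. Of the 36 genes, where 5 rose and 7 fell, 9 rose and 4 fell with library size, 10 rose and 2 fell with housekeeping scaling and 3 rose with no count filter. With the replicate block, which pairs the samples, 3 rose and 11 fell, and it changed no call of the 36 genes other than those given above. Leaving out each library gave 2 to 5 higher and 3 to 11 lower genes.

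In the alternatives run, changes of sign were confined to genes and ratios that did not pass. Log2 fold changes turned with library size for Lamp2 (0.212), Npc1 (0.295), Gaa (0.0225), Asah1 (0.0203), Smpd1 (0.143), Gm2a (0.248), Atp6v0d1 (0.0541), Becn1 (0.0743) and Atg16l1 (0.186). With housekeeping scaling those of Lamp2 (0.367), Npc1 (0.426), Glb1 (0.0136), Gaa (0.175), Tpp1 (0.133), Asah1 (0.190), Smpd1 (0.295), Gm2a (0.466), Atp6v0d1 (0.242), Becn1 (0.262) and Atg16l1 (0.363) turned, and with upper-quartile scaling those of Npc1 (0.0689) and Gm2a (0.0156). Npc1 also turned with a mean of at least 10 CPM (0.00134), limma-voom (0.0737), the replicate block (0.0488) and without both libraries of number 3 (0.00139). Leaving out each library gave −0.151 to 0.265 for Npc1, −0.239 to 0.108 for Lamp2 and −0.175 to 0.141 for Gm2a. The log2 ratio Gabarapl1/Map1lc3b, treated minus untreated, ranged from −0.268 to 0.0733 and the log2 ratio Sqstm1/Optn from −0.00768 to 0.247. The cause of these shifts was not tested, beyond the change of scale itself. For ratios, the smallest p is 0.0571 with 1 library left out, 0.1 with both of number 3 left out and 0.125 in the paired sign-flip test, so those tests could not pass. Optn was not tested at a mean of at least 10 CPM. Optn, near 10 CPM, has the lowest mean level of the 36 genes.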
